A study of Mus musculus with 12 samples.

Results

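The 7 genes described here are regulators and markers of the epiblast and the neural ectoderm: Otx2, Pou3f1, Sp8, Pax6, Nes, Zic2 and Hes5. They were taken by name among the 34836 gene names of the array and are read by every probe that carries their name, 10 of 55681 probes. Of these 10 probes, 8 were among the 25940 probes that were bright enough to be tested. Otx2 and Sp8 were chosen because Otx2 fell and Sp8 rose in Sox7 (-/-) cells treated with dexamethasone (Dex), so that response is given as a description only, with no test. The choice used no threshold.

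RNA of mouse ES cells was hybridized to 12 one-colour Agilent arrays, 3 for each of 4 groups, all at day 4. The groups were Sox7 (+/-) cells without Dex, Sox7 (+/-) cells with Dex, Sox7 (-/-) cells without Dex and Sox7 (-/-) cells with Dex, here called ES cells without Dex and XEN-like cells with it. Every group carried Gata6-GR, a fusion of the transcription factor Gata6 to the ligand-binding domain of the glucocorticoid receptor, which Dex sends to the nucleus, and no group lacked the transgene. XEN-like cells resemble extraembryonic endoderm cells, the lineage of the yolk sac. The Sox7 (+/-) cells are 1 clonal line and the Sox7 (-/-) cells were selected from it with a high dose of puromycin, so genotype and clone cannot be told apart. Dex was given to XEN-like cells only, so effects of Gata6 and of other glucocorticoid action cannot be told apart.

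Otx2, a homeodomain factor, and Pou3f1, a POU-domain factor, are switched on when pluripotent cells leave the naive state for the epiblast that will form the embryo. Both are later used in the anterior neural plate, and Otx2 is also active in the visceral endoderm that overlies the epiblast. Zic2 and Sp8 are zinc-finger factors of the epiblast and of the early forebrain and neural plate, Pax6 is a paired-box factor of the eye field and neural progenitors, Nes encodes the intermediate filament nestin of neural progenitors, and Hes5 is a repressor that Notch signalling switches on.

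The signal of a probe is given as a percentage of the 75th percentile of its array, and levels of different probes are not set against each other. A probe was called when its change exceeded 2-fold with an adjusted p below 0.05 in limma. Where Feature Extraction, the scanner software, did not find a probe well above background on any array of a group, the fold is given as a lower bound, and a fitted log2 value beside it comes from the test and does not measure the size.

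The probe for Sox7 read 224% ± 5.42 (SD, n = 3) before and 558% ± 113 (SD, n = 3) after Dex in Sox7 (+/-) cells, and was not well above background on any Sox7 (-/-) array. All 7 markers of ES cells were well above background in both groups of ES cells, whereas Nanog and Sox2 were not on any array of XEN-like cells. The 8 primitive endoderm markers were well above background in all groups. They summed to between 30000% and 41039% in ES cells and to between 106464% and 124400% in XEN-like cells. Lama1 and Col4a1 made most of these sums, at 29377% and 4824% before and 72524% and 26322% after Dex in Sox7 (+/-) cells. Gata6 went from 1307% to 1633% in Sox7 (+/-) and from 1887% to 2430% in Sox7 (-/-) cells (means of 3 arrays). Gata4, Sox17 and Foxa2 rose more, from 1072%, 1054% and 769% to 3134%, 5834% and 3864% in Sox7 (+/-) cells (means of 3 arrays). Pdgfra and Dab2 went from 641% and 1231% to 2505% and 2284% there. The means of these markers also rose with Dex in Sox7 (-/-) cells. The sums thus share the direction of the other markers but do not give the size of their changes. A slide held all 3 arrays of Sox7 (-/-) ES cells with 1 array of Sox7 (-/-) XEN-like cells, and a second slide held the other 8, so the Dex response of Sox7 (+/-) cells lay within 1 slide. In ES cells slide and genotype coincide. A slide effect could be read only from the Sox7 (-/-) XEN-like arrays, of which 1 was on the first slide. With the slide as a block, genotype differences in ES cells therefore rest on that 1 array and cannot settle whether they come from the slide. The Sox7 (+/-) XEN-like arrays varied most, with a median SD over probes of 0.20 on the log2 scale against 0.09 to 0.11 in the other groups.

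Otx2 and Sp8 were each read by a pair of probes at different places of the gene, and the first 30 bases of these 60-base probes are given because the paired probes did not report the same size of change. The capitals mark TTATCT, the reverse complement of the GATA-factor letters AGATAA.

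Otx2 probe 1: tttcagggctgtgtggattgtgcgactgat

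Otx2 probe 2: gggacgtgtgcccctcggaTTATCTcgtta

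Sp8 probe 1: aaacattgtcttgttatgtctaagtgcatt

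Sp8 probe 2: tgcaacaaacgcttcatgcgcagcgaccac

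On mm9, Otx2 probe 1 lies at chr14:49277855-49277914 and Otx2 probe 2 at chr14:49284952-49285011. Otx2 probe 1 starts at base 1770 of its annotated transcript and Otx2 probe 2 at base 185 of another, so they lie near different ends of the gene. Sp8 probe 1 lies at chr12:120090880-120090939 and Sp8 probe 2 at chr12:120088145-120088204, at bases 4308 and 1573 of the same transcript. The exon or UTR that holds each probe was not analysed here.

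The rule that named Otx2 and Sp8 used the Sox7 (-/-) arrays and not those of Sox7 (+/-) cells. The members were chosen with earlier results of these data known, so tests in Sox7 (+/-) cells are not independent of the choice. In Sox7 (+/-) cells 5 of the 8 tested probes fell with Dex and 2 rose. The 5 were those of Pou3f1, Nes, Zic2, Hes5 and Otx2 probe 1, and the 2 were both probes of Sp8. Among all tested probes 14% fell and 11% rose. Of the 8 probes, 4 were well above background on all 12 arrays and 4 passed the filter through some groups only, so these counts describe the probes and support nothing further. In bulk RNA, fewer cells that express a gene and less RNA in each cell cannot be told apart.

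**Figure D1:**
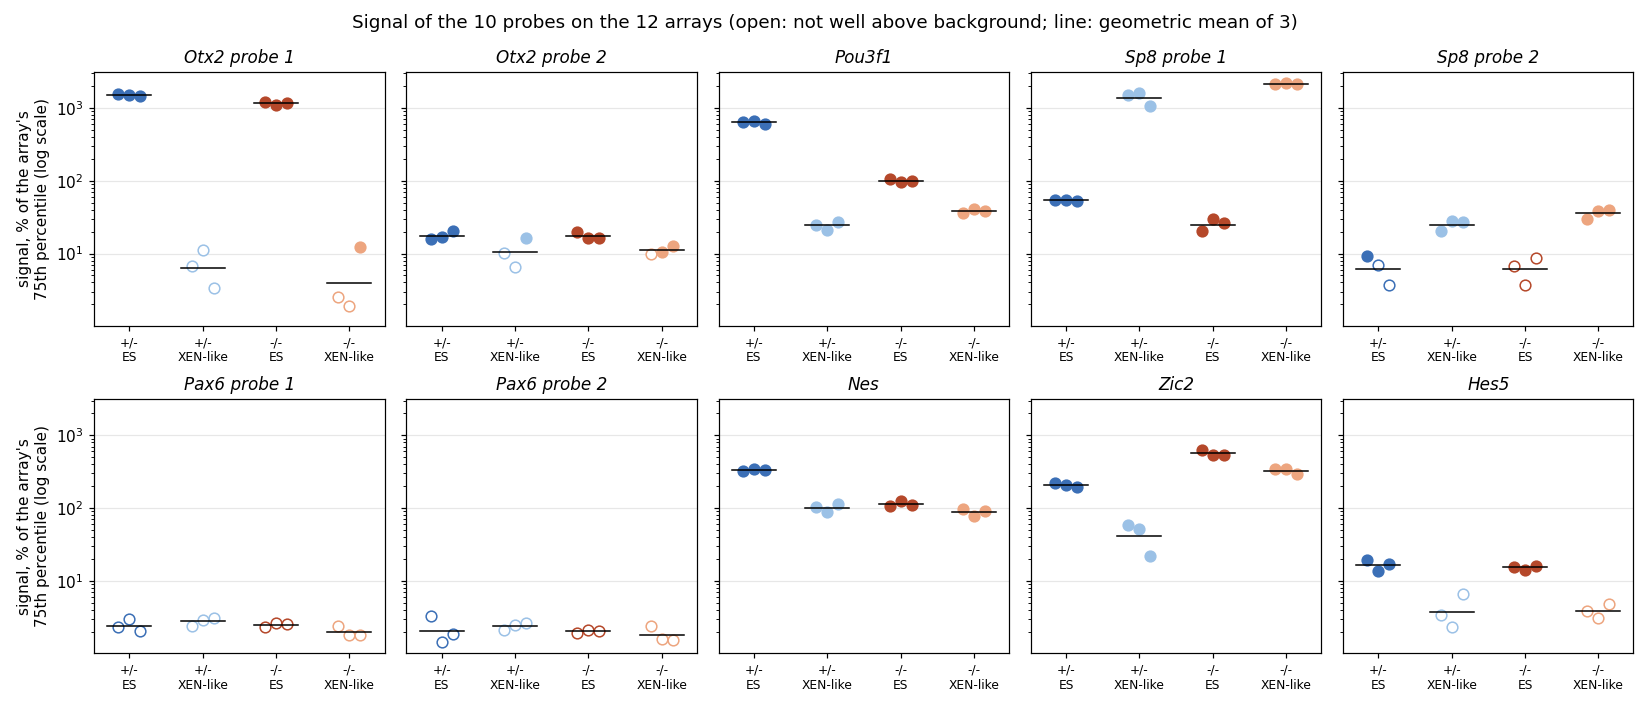
Signal of the 10 probes on each of the 12 arrays, as a percentage of the 75th percentile of the array on a log scale, by group. Filled points were well above background, open points were not, and the line is the geometric mean of 3 arrays. Sp8 probe 1 rose from between 53.4% and 54.4% to between 1082% and 1616% in Sox7 (+/-) cells, whereas Pou3f1 and Zic2 fell, and neither Pax6 probe was well above background on any array.

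The plot of the signal by array shows that Otx2 probe 1 stood above the 75th percentile of every ES array and near background after Dex. Otx2 probe 1 read 1585%, 1528% and 1446% in Sox7 (+/-) ES cells and 6.71%, 11.2% and 3.31% in Sox7 (+/-) XEN-like cells, none of the latter well above background. The groups did not overlap, and the signal was at least 152-fold lower in XEN-like cells (fitted log2 change -7.92, SE 0.62, limma adjusted p = 1.7e-06). In Sox7 (-/-) cells the same probe read 1225%, 1098% and 1182% without Dex and 2.50%, 1.92% and 12.3% with Dex. Only the third of these XEN-like arrays was well above background. The fitted log2 change in Sox7 (-/-) cells was -8.23, and -9.06 without that array. The remaining XEN-like arrays were not well above background, so these values do not measure the size. Between genotypes the ES arrays did not overlap, with Sox7 (-/-) lower by 0.38 on the log2 scale. With the slide as a block the difference was 0.58 in the other direction. That block takes the slide effect from the Sox7 (-/-) XEN-like arrays, where this probe was near background. It therefore cannot show a slide effect at the level of ES cells. The XEN-like arrays of the genotypes overlapped.

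Otx2 probe 2 was dim in every group. It read 15.9%, 16.8% and 20.5% in Sox7 (+/-) ES cells against 10.3%, 6.62% and 16.4% in Sox7 (+/-) XEN-like cells, of which only the last was well above background. These groups overlapped, and the log2 change of -0.76 (SE 0.27, limma adjusted p = 0.031) was under 2-fold and not called. It was called without the third Sox7 (+/-) XEN-like array (log2 change -1.09, adjusted p = 0.0011) and with scaling to the spike-in controls (log2 change -1.26, adjusted p = 5.6e-04). Sox7 (-/-) cells read 19.6%, 16.2% and 16.2% without Dex and 9.84%, 10.5% and 12.9% with Dex, a log2 change of -0.65. The large fall was therefore seen by probe 1 and not by probe 2.

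Matched by its letters, Otx2 probe 2 lies between 227 and 168 bases before 1 of the RefSeq start sites of Otx2, in the window chr14:48665060-48665359 of GRCm38.p6, minus strand. RefSeq gave 11 windows of 300 bases, from 250 bases before to 50 bases after a start, for the 5 genes Otx2, Sp8, Pax6, Nes and Hes5, whereas Pou3f1 and Zic2 had none. AGATAA, searched on both strands, was found in 2 of the 11 windows, both of Otx2, at 208 and 133 bases before the start. The first of these matches is the one in capitals above. Of all 32851 windows 11.2% held these letters. AACAAT, the letters bound by many SOX factors, was found on either strand in 0 of the 11 windows and in 3521 of all windows. A match of letters is a description of the window, not a binding site.

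Pou3f1 was read by 1 probe at chr4:124337692-124337751. Its signal was 634%, 659% and 611% in Sox7 (+/-) ES cells and 24.8%, 21.4% and 27.5% after Dex. The fall was 26.0-fold with no overlap (log2 change -4.70, SE 0.10, limma adjusted p = 1.4e-10). In Sox7 (-/-) cells it went from 104%, 95.8% and 97.9% to 36.1%, 40.8% and 38.2%, a fitted change of 2.59-fold. The Sox7 (-/-) ES arrays were 6.39-fold below those of Sox7 (+/-) ES cells (log2 difference -2.68, adjusted p = 4.0e-08). With the slide as a block, which here rests on 1 array, this difference was -2.55. In XEN-like cells the order turned, and Sox7 (-/-) arrays were higher by 0.65 on the log2 scale (adjusted p = 7.1e-04), without overlap but under 2-fold and so not called. The 4 groups thus stood in the order Sox7 (+/-) ES, Sox7 (-/-) ES, Sox7 (-/-) XEN-like and Sox7 (+/-) XEN-like, with no neighbours overlapping.

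Nes, at chr3:87784303-87784362, followed a similar order at first. It read 320%, 346% and 332% in Sox7 (+/-) ES cells and 103%, 88.6% and 115% after Dex, a fall of 3.27-fold (log2 change -1.71, SE 0.11, limma adjusted p = 4.6e-07). Sox7 (-/-) ES cells read 106%, 123% and 109%, which was 2.95-fold below Sox7 (+/-) ES cells (log2 difference -1.56, adjusted p = 4.8e-06, and -1.77 with the slide as a block). After Dex Sox7 (-/-) cells read 97.2%, 78.8% and 89.9%, a fitted log2 change of -0.35. The Sox7 (+/-) ES arrays therefore stood above all others, whereas the other neighbours in the order overlapped. The genotypes in XEN-like cells overlapped and differed by -0.20 on the log2 scale (adjusted p = 0.19), a value that ran from -0.30 to 0.22 over the other ways of processing, leaving out an array included.

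Zic2, at chr14:122879296-122879355, was the member in which the genotypes stood furthest apart after Dex among those tested. Sox7 (+/-) cells read 221%, 206% and 194% without Dex and 59.3%, 51.9% and 22.0% with Dex. The fall was 5.07-fold (log2 change -2.34, SE 0.30, limma adjusted p = 6.3e-05), and the third XEN-like array was the lowest. Sox7 (-/-) cells read 626%, 536% and 538% without Dex and 340%, 347% and 298% with Dex, a fitted change of 1.73-fold. Every Sox7 (-/-) XEN-like array was thus above every Sox7 (+/-) ES array, and no groups overlapped. Between XEN-like groups Zic2 was 8.03-fold higher in Sox7 (-/-) cells (log2 difference 3.0, adjusted p = 6.0e-05), and between 2.56 and 3.28 on the log2 scale when each array was left out. With the slide as a block it was 2.98 (adjusted p = 4.8e-04). Between ES groups it was 2.73-fold higher (log2 difference 1.45, adjusted p = 0.0031), a call that was lost with the slide as a block (log2 difference 1.37).

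Sp8 was the member that rose. Sp8 probe 1 read 54.4%, 54.0% and 53.4% in Sox7 (+/-) ES cells and 1531%, 1616% and 1082% after Dex. The rise was 25.7-fold with no overlap (log2 change 4.69, SE 0.16, limma adjusted p = 3.9e-09). Sox7 (-/-) cells went from 20.3%, 29.4% and 26.1% to 2147%, 2184% and 2142%, a fitted change of 86.4-fold. Their ES arrays lay below and their XEN-like arrays above those of Sox7 (+/-) cells, by -1.11 and 0.64 on the log2 scale, and no groups overlapped. Sp8 probe 2 was dim and moved the same way. It read 9.20%, 6.92% and 3.72% in Sox7 (+/-) ES cells, of which only the first was well above background, and 20.3%, 27.6% and 27.3% after Dex (log2 change 2.01, SE 0.36, limma adjusted p = 7.3e-04). This change was 0.84 with normexp background correction and 0.59 with the table the authors deposited, both under 2-fold. In Sox7 (-/-) cells probe 2 read 6.80%, 3.74% and 8.71%, none well above background, and then 29.98%, 38.6% and 40.1%, at least 3.97-fold higher.

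Hes5, at chr4:154336347-154336406, was dim in ES cells and was not well above background on any XEN-like array. It read 19.2%, 13.6% and 17.1% in Sox7 (+/-) ES cells and 3.37%, 2.30% and 6.54% after Dex, at least 1.75-fold lower (fitted log2 change -2.15, SE 0.32, limma adjusted p = 2.0e-04). The fitted change was -0.38 with normexp correction and -0.92 with the deposited table, both under 2-fold. Sox7 (-/-) cells read 15.6%, 14.1% and 16.2% and then 3.78%, 3.09% and 4.72%, at least 2.04-fold lower. The genotypes overlapped in both states, with differences of -0.11 in ES cells (adjusted p = 0.81) and 0.04 in XEN-like cells (adjusted p = 0.93).

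Pax6 was not measurable on these arrays. Its probes, at chr2:105536454-105536513 and within chr2:105524098-105524949, read between 1.77% and 3.08% and between 1.46% and 3.26%, and neither was well above background on any of the 12 arrays. No difference of Pax6 between the groups could be tested at this signal.

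**Figure D2:**
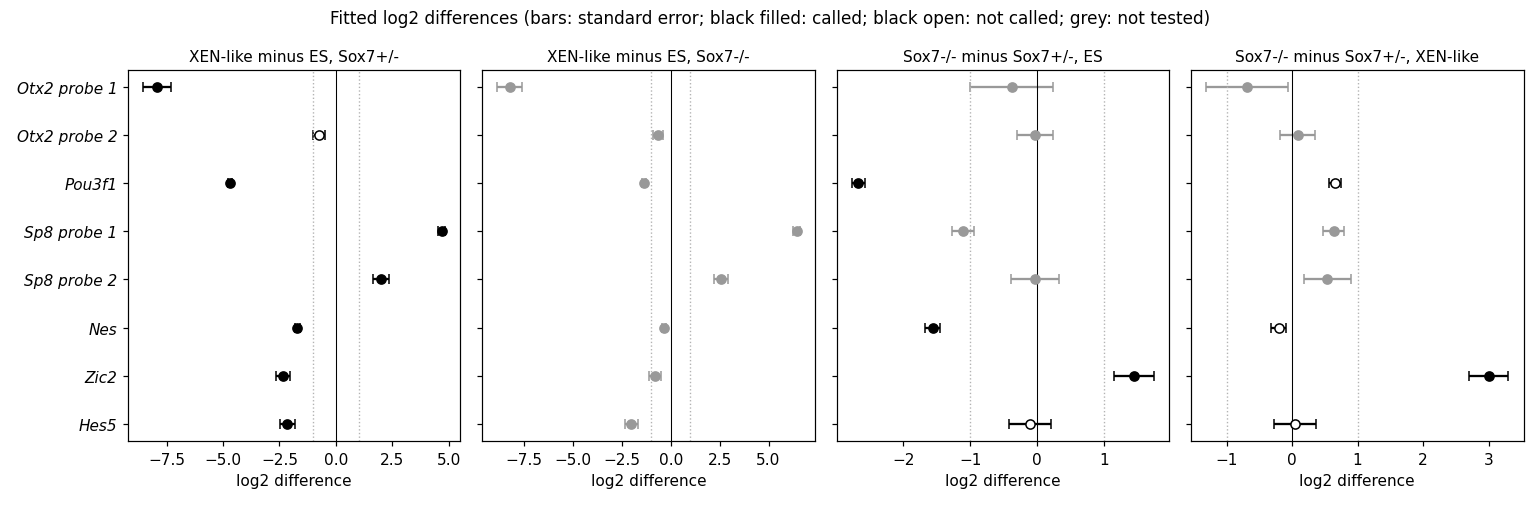
Fitted log2 differences of the 8 tested probes with their standard errors in the 4 comparisons, with dotted lines at 2-fold and a separate scale in each panel. Black filled points were called, black open points were tested and not called, and grey points were not tested. Zic2 was called in both genotype comparisons (1.45 in ES cells and 3.0 in XEN-like cells), and Pou3f1 and Nes lay below 0 in ES cells.

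The genotype comparisons tested the 4 probes of Pou3f1, Nes, Zic2 and Hes5, since Otx2 and Sp8 were chosen on arrays that these comparisons share. In ES cells 1 of the 4 was higher in Sox7 (-/-) cells and 2 were lower, beside 1.95% and 6.67% of all tested probes. In XEN-like cells 1 was higher and 0 lower, beside 3.86% and 3.65%. None of the 4 was lower in XEN-like cells at an unadjusted limma p under 0.05, and the count of lower calls was 0 in every other way of processing. The plot of fitted differences shows the pattern across members: Pou3f1 and Nes were lower in Sox7 (-/-) ES cells, Zic2 was higher in both states, and Hes5 was not called in either. The Dex response of Sox7 (-/-) cells minus that of Sox7 (+/-) cells was 3.33 on the log2 scale for Pou3f1, 1.75 for Sp8 probe 1, 0.57 for Sp8 probe 2, 1.55 for Zic2 and 1.36 for Nes. It is not given for Otx2 and Hes5, which ended near background in both genotypes. Sp8 probe 2 started near background in both. These values contain the contrast the genes were chosen on and are given without a test.

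Markers of other cells also differed between the genotypes. The 7 ES cell markers summed to between 21621% and 22785% in Sox7 (+/-) ES cells and to between 45509% and 48755% in Sox7 (-/-) ES cells. In XEN-like cells 5 of the 7 were well above background in both genotypes, and they summed to between 5236% and 5740% in Sox7 (+/-) and between 7341% and 8001% in Sox7 (-/-) cells. Most of that sum was Klf4, at 4887% ± 416 and 6256% ± 178 (SD, n = 3 each), which was higher in XEN-like than in ES cells of both genotypes, so the sum does not describe the other ES cell markers. The 8 markers of the anterior visceral endoderm, where Otx2 is also known to act, summed to between 2275% and 2355% in Sox7 (+/-) XEN-like cells and between 7299% and 8032% in Sox7 (-/-) XEN-like cells. Sfrp5, at 895% ± 21.3 and 4882% ± 384, and Dkk1, at 1013% ± 121 and 2158% ± 83.8 (SD, n = 3 each), made most of that difference, whereas Fzd5 read 18.1% ± 5.24 and 12.8% ± 1.68 (SD, n = 3 each). Of these 8, 4 were well above background on all arrays of each XEN-like group, and Cer1 and Gsc were on none. The 6 neural ectoderm markers summed to between 480% and 669% in Sox7 (+/-) and between 429% and 461% in Sox7 (-/-) XEN-like cells, and to between 553% and 588% and between 720% and 834% in the ES cells. Ncam1 made most of both differences, at 351% ± 33.6 and 184% ± 14.3 in XEN-like cells and 134% ± 10.6 and 328% ± 43.8 in ES cells. Zic1 went the other way in XEN-like cells, at 26.4% ± 7.93 and 51.5% ± 3.04. Sox3 did so in ES cells, at 282% ± 19.7 and 218% ± 21.4 (SD, n = 3 each). Of the 5 surface ectoderm markers, Krt18 made up most of the sum, which ran from 23492% to 25858% in Sox7 (+/-) and from 3244% to 3466% in Sox7 (-/-) ES cells, and from 14394% to 15696% and from 13966% to 15857% in XEN-like cells. Krt18 read 23560% ± 1213 and 2926% ± 118 (SD, n = 3 each) in the ES cells, whereas Tfap2a read 26.5% ± 2.63 and 28.4% ± 1.94 (SD, n = 3 each). Trp63 was also lower in Sox7 (-/-) ES cells, at 1247% ± 13.7 and 383% ± 27.0 (SD, n = 3 each). Krt5 and Krt14 were not well above background on all 3 arrays of either ES group. The part of these markers in the results above was not tested.

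Relatives of Zic2 were examined beside it, since they are close copies with overlapping expression in the epiblast and neural plate. In Sox7 (+/-) cells Zic1 and Zic5 fell with Dex, by 1.56 and 2.77 on the log2 scale (limma adjusted p = 2.0e-05 and 2.5e-08). In XEN-like cells Zic5 was higher in Sox7 (-/-) than in Sox7 (+/-) cells by 1.23 on the log2 scale (adjusted p = 6.7e-05), with levels of 86.6% ± 5.95 and 37.3% ± 7.09 (SD, n = 3 each). Zic1 was higher by 1.01 (adjusted p = 0.0016), with levels of 51.5% ± 3.04 and 26.4% ± 7.93 (SD, n = 3 each). The call of Zic1 and that of Zic5 were each lost under at least 1 other scaling or background correction, where their lowest differences were 0.56 and 0.82. Zic4 was too dim to be tested. Whether the difference of Zic2 exceeded those of Zic1 and Zic5 was not tested.

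**Figure D3:**
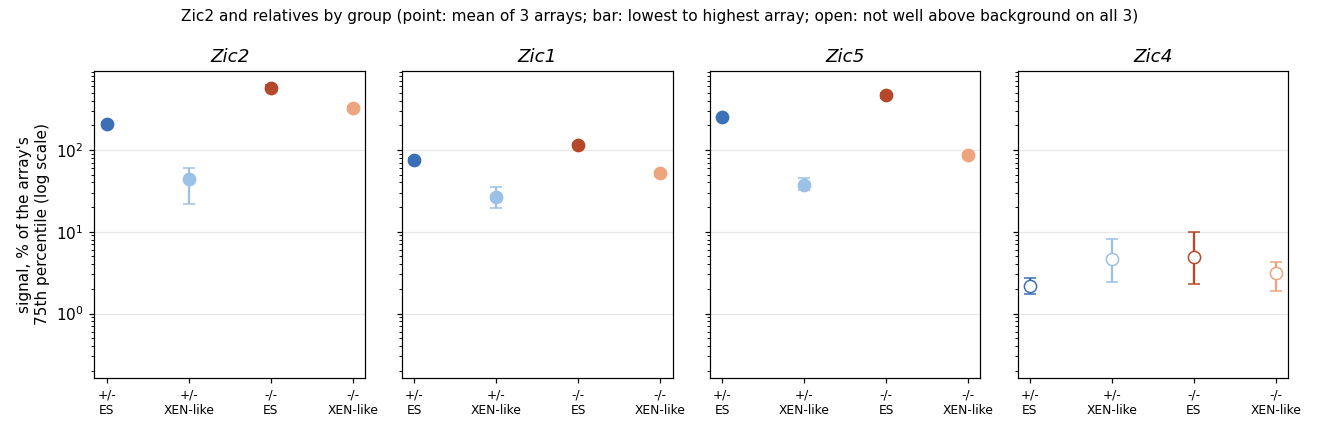
Level of Zic2, Zic1, Zic5 and Zic4 by group, as a percentage of the 75th percentile of the array on a log scale. Points are means of 3 arrays, bars run from the lowest to the highest array, and open points were not well above background on all 3. Zic2 read between 298% and 347% in Sox7 (-/-) XEN-like cells and between 22.0% and 59.3% in Sox7 (+/-) XEN-like cells.

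Of 12 genes of the formative and primed epiblast, the state in which Otx2 and Pou3f1 act, 8 fell and 0 rose with Dex in Sox7 (+/-) cells, with a median log2 change of -2.44 against 0.16 over all tested probes. At an unadjusted limma p under 0.05 1 of them was higher. Fgf5, the classical marker of the epiblast, went from 219% ± 22.7 (SD, n = 3) to levels not well above background on any array, at least 23.2-fold lower (limma adjusted p = 1.0e-08). In Sox7 (-/-) cells 9 fell and 1 rose, beside 14.2% and 14.6% of all probes. There Foxd3, a forkhead factor, was at least 31.2-fold lower and Sall2, a zinc-finger factor, was higher by 1.46 on the log2 scale. Between genotypes in ES cells 3 were lower and 1 higher, the largest fall being that of Fgf5, which read 219% ± 22.7 in Sox7 (+/-) and 42.0% ± 7.07 in Sox7 (-/-) cells (SD, n = 3 each). In XEN-like cells 1 was higher and 1 lower, with a median of 0.14. The lower one was Lef1, a factor of Wnt signalling, at -2.59 on the log2 scale, or -0.98 at the least under another scaling or background correction, where it was not called. Among all tested probes 14% fell and 11% rose with Dex in Sox7 (+/-) cells. Between genotypes 1.95% were higher and 6.67% lower in ES cells, and 3.86% and 3.65% in XEN-like cells. These shares stand beside the counts of every list here. In each list some genes passed the filter through some groups only, so the counts describe the lists and support nothing further.

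Of 24 transcription factors of the neural plate 18 were tested, and they moved in both directions. In Sox7 (+/-) cells 7 fell and 5 rose with Dex, beside 14% and 11% of all tested probes, with a median log2 change of -0.04. Sox2, a factor of pluripotency and of neural progenitors, was at least 90.2-fold lower, and Emx2, a forebrain homeobox factor, was at least 8.21-fold higher. In Sox7 (-/-) cells 8 fell and 4 rose, again led by Sox2 (at least 164-fold) and Emx2 (at least 12.7-fold). In ES cells only Gbx2 was called between genotypes, higher in Sox7 (-/-) cells by 1.66. With the slide as a block it was higher by 0.89 and not called. Gbx2 was not well above background on any Sox7 (-/-) XEN-like array, and those arrays alone give the slide effect. This value therefore cannot settle whether the difference comes from the slide. In XEN-like cells 4 were higher and 2 lower, but the slide block gave 3 higher and 3 lower and did not call Emx2 (adjusted p = 0.066). Hesx1, a homeobox repressor of the anterior neural plate, was not above background on any Sox7 (+/-) XEN-like array and at 37.7% ± 3.55 (SD, n = 3) in Sox7 (-/-) XEN-like cells, at least 4.00-fold higher (limma adjusted p = 4.6e-06), and its fitted log2 difference of 3.19 was 1.04 at the least under another scaling or background correction. Nkx6-1, a ventral neural tube factor, was lower by 1.77 on the log2 scale in Sox7 (-/-) XEN-like cells, or at -0.87 at the least under another scaling or background correction, where it was not called.

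Of 12 genes of neural progenitors and neurons 7 were tested. With Dex 4 fell and 1 rose in Sox7 (+/-) cells, beside 14% and 11% of all tested probes, with a median of -2.20. That median is the fitted value of a gene not well above background on any Sox7 (+/-) XEN-like array. The gene was at least 1.38-fold lower, so the median does not measure a size. In Sox7 (-/-) cells 4 fell and 0 rose, beside 14.2% and 14.6%, and 0 rose at an unadjusted limma p under 0.05. Stmn2, a microtubule regulator of neurons, was at least 118-fold and at least 221-fold lower, and the cell adhesion gene Ncam1 rose by 1.38 on the log2 scale in Sox7 (+/-) cells. Ncam1 was also higher by 1.28 in Sox7 (-/-) than in Sox7 (+/-) ES cells, where 2 genes were higher and 1 lower. In XEN-like cells Tubb3, a neuronal tubulin, was the single call, lower by 2.46 on the log2 scale in Sox7 (-/-) cells (limma adjusted p = 7.5e-06).

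Of 22 genes of the Notch pathway, which controls Hes5, 17 were tested. In Sox7 (+/-) cells 7 fell and 1 rose with Dex, beside 14% and 11% of all tested probes, with a median of -0.31. Mfng, which modifies Notch receptors, was at least 19.4-fold lower, and Hey2, a target of Notch related to Hes5, was at least 2.41-fold higher. In Sox7 (-/-) cells 6 fell and 2 rose, again led by Mfng (at least 30.1-fold) and Hey2 (at least 2.52-fold). In ES cells 2 genes were lower and 0 higher in Sox7 (-/-) cells, the larger fall being that of the receptor Notch3, by 1.42 on the log2 scale, and 4 were higher at an unadjusted limma p under 0.05. In XEN-like cells 0 of the 17 were called in either direction by limma, and at an unadjusted p under 0.05 6 were higher and 2 lower.

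**Figure D4:**
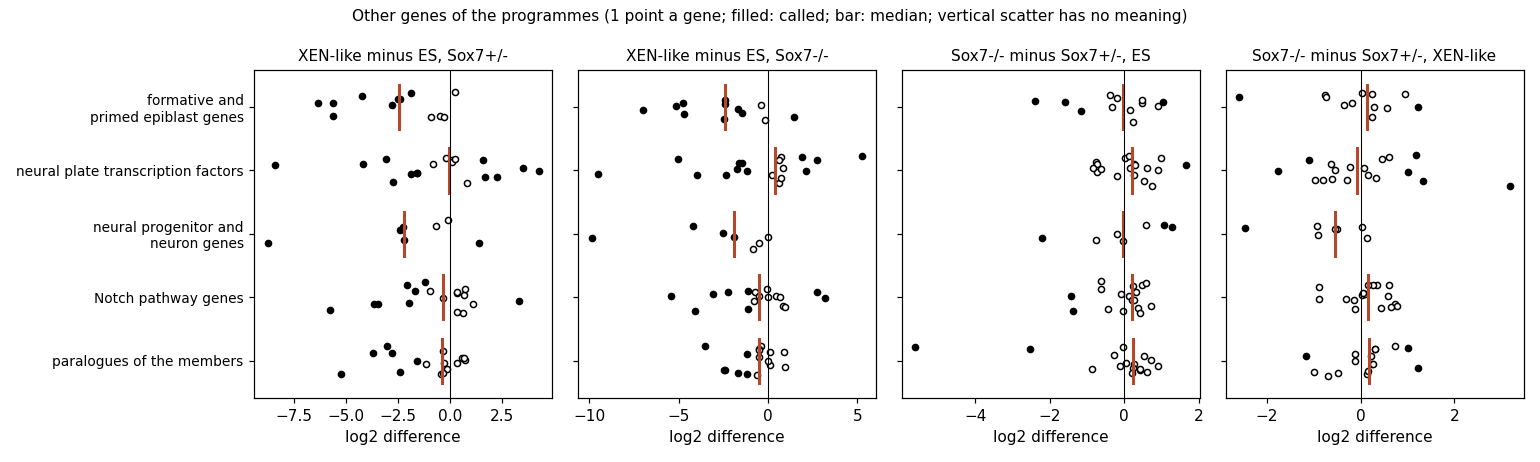
Fitted log2 differences of the other genes of the programmes, 1 point for each gene, in the 4 comparisons with a separate scale in each panel. Filled points were called, the bar is the median, and vertical scatter carries no information. The median of the formative and primed epiblast genes was -2.44 for Dex in Sox7 (+/-) cells, and those of the neural plate factors and Notch genes were -0.04 and -0.31.

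The plot of the other genes by programme also holds the paralogues of the members, 16 of 26 tested. With Dex 6 of them fell and 0 rose in each genotype. Beside them, 14% of all tested probes fell and 11% rose in Sox7 (+/-) cells, and 14.2% and 14.6% in Sox7 (-/-) cells. The paralogues had medians of -0.36 and -0.53, and 4 and 2 of them were higher at an unadjusted limma p under 0.05. Among them Sp5, a relative of Sp8, moved against it. It was 187% ± 18.3 (SD, n = 3) in Sox7 (+/-) ES cells and not above background on any array of the other groups, at least 19.8-fold lower after Dex (limma adjusted p = 2.2e-06). In ES cells it was at least 20.6-fold lower in Sox7 (-/-) cells. In all, 2 paralogues were lower and 0 higher between genotypes in ES cells (6 higher at an unadjusted p under 0.05), and 2 were higher and 1 lower in XEN-like cells. Otx1, Crx, Pou3f2, Pou3f3 and Pou3f4 were too dim to be tested.

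The pattern of a member over the 12 arrays was compared with that of 16542 tested probes by Pearson's r, as a description in which all probes share the arrays and their 4 groups. The pattern of Otx2 probe 1 was close to those of Thy1 and Mup6 (r = 0.993 and 0.993). That of Pou3f1 was most like those of Zscan4c, Zscan4e and Zscan4f (r = 0.998, 0.998 and 0.996), near-identical copies of 1 family that may share hybridization. Sp8 probe 1 was most like Wwc2, Filip1l and Rela (r = 0.999, 0.999 and 0.998). Nes was most like AA684185, Wnt8a and BC080695 (r = 0.994, 0.991 and 0.989). Zic2 was most like S100a16, Mtmr7 and Map7 (r = 0.992, 0.989 and 0.986), and Hes5 was most like Padi2, AK161320 and Fry (r = 0.985, 0.983 and 0.983).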

How the data were processed

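The authors deposited the output of Agilent Feature Extraction 10.7.3.1 for each array, whose intensity values are background-subtracted within an array and not scaled between arrays, and a table of intensity values for the whole series that holds the mean spot signal. Probe positions are those that the array files give for mm9. The 59305 spots besides controls were averaged by probe, and log2 of the processed signal was taken minus the 75th percentile of the array. A probe was tested if every array of some group showed it well above background, which left 25940. A single limma fit (3.58.1, R 4.3.3) of the 12 arrays gave each group a mean, with moderated variances and Benjamini-Hochberg adjustment over all tested probes, and a probe was called at an adjusted p under 0.05 and over 2-fold. A gene with several probes outside the members was read by its brightest probe. A lower bound of a fold set the bright group against the lowest signal found well above background on each array of the dim group, or the dim probe's own signal where that was higher.

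The members and the gene lists were chosen with earlier results of these data known. Every probe of the 7 members was named, and for each list the called gene with the largest rise and that with the largest fall, with paralogues where a member was set beside them. For each member the 3 genes with the most similar pattern were named among tested probes that spanned over 1 on the log2 scale. Some genes that these rules name are not reported here. Promoter windows and their starts are RefSeq's. The procedure was tested on simulated data.

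The number of arrays limits the precision, and 41.7% to 52.3% of spots were well above background. Replicates of a group correlated with r from 0.982 to 0.996. Arrays that share a replicate number were not paired, since their deviations correlated by -0.051 to 0.13. Whether replicates were separate cultures is not given in the sources used here, and for the Sox7 (+/-) ES arrays source and title labels differ in the replicate number, so p-values measure the spread between these arrays, which may be technical.

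The alternatives were quantile normalization, normexp correction (offset 50), the deposited table, scaling to 7 spike-in controls or to the median of bright probes, a filter on all arrays or none, a fit of the compared arrays alone, an intensity trend, a block for the replicate number or the slide, and leaving out each array.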

Additional observations from a re-analysis of the deposited data

How the results depend on the processing

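Of 752 changes of single probes under the alternatives, 723 kept their direction and call or moved by less than the spread of replicates, 22 untested values moved by more, 2 gained a call and 5 lost one. The count of member probes that rose with Dex in Sox7 (+/-) cells went from 2 to 1 with normexp correction, with the deposited table and with only probes well above background on all arrays, in each case without Sp8 probe 2. The last of these filters also took the count that fell from 5 to 3, since it tests fewer probes. With the slide as a block the count higher in Sox7 (-/-) ES cells went from 1 to 0, as did that of the epiblast genes, and the paralogues lower there went from 2 to 1. The block for the replicate number left 2 higher and 5 lower with Dex in Sox7 (+/-) cells and changed no call. Scaling to the spike-in controls moved the median over all tested probes from 0.16 to -0.34 for Dex in Sox7 (+/-) cells, and from 0.00 to 0.25 between genotypes in XEN-like cells. Over the scalings and background corrections the counts of neural plate factors that fell with Dex in Sox7 (+/-) cells ran from 3 to 8 and of those that rose from 3 to 5, the epiblast genes that fell from 8 to 9, the neural progenitor and neuron genes that fell from 2 to 5 and rose from 0 to 1, and the paralogues that fell from 4 to 7, and from 3 to 6 in Sox7 (-/-) cells. Between genotypes in XEN-like cells the neural plate factors ran from 2 to 4 higher and from 0 to 3 lower. Keeping spots marked as outliers by the software was tried after seeing the data. Levels close to background, as of Hes5, Pax6, Otx2 probe 2 and Sp8 probe 2, limit what can be said of those probes.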
